A study of Mus musculus with 20 samples.

Results

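Ifnb1, the mouse gene of interferon beta, is described here by its transcript level in macrophages that met LPS for up to 16 h. All non-control probes with the gene name Ifnb1 were taken, which gave 1 probe with 1 spot per array among 39429 non-control probes, so every value of the gene rests on a single spot. The probe lies on chromosome 4, mm9, from 88168023 to 88168082, on the minus strand, per the file headers' annotation; its place within the transcript was not annotated here. It passed the filter on dim probes, as did 28388 probes in all, which stood for 22035 genes.

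Macrophages were grown from bone marrow of C57BL/6 mice in medium conditioned by M-CSF-producing L929 cells, and 4 genotypes were labelled: wild-type, MyD88-KO, TRIF-KO and double-KO, which lacks both adapters. Cells were kept in serum-free medium with LPS of Salmonella at 200 ng/mL or without it for 1, 2, 4, 8 or 16 h, and each array of 2 colours carried LPS-treated and untreated RNA of 1 genotype and 1 time. There were thus 20 arrays, 5 per genotype and 1 per time point; 19 carried LPS-treated RNA in Cy5, and the MyD88-KO array of 2 h carried it in Cy3. The labels call the mice age and gender matched, give no ages, and do not say whether time points came from separate animals or cultures, so p-values measure only the spread between these samples, which here includes the differences between time points.

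Interferon beta is a secreted antiviral cytokine. LPS binds Tlr4 at the macrophage surface, which signals through the adapter MyD88 towards NF-kB and inflammatory cytokines and, from endosomes, through the adapter TRIF (gene Ticam1) towards the kinase Tbk1 and the transcription factor Irf3, which with NF-kB switches Ifnb1 on. Secreted interferon beta then binds the receptor of Ifnar1 and Ifnar2 on the same and on neighbouring cells and induces a large group of interferon-stimulated genes. The genotypes ask how much of this induction needs each adapter.

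The promoter stretch below is shown because it holds the sites for which Ifnb1 is known, next to each other and close to the start of transcription. It is the gene's strand at chr4:88522865-88522964 (minus strand, GRCm38.p6, from RefSeq), positions -170 to -71 from the annotated gene start, with the matched letters in capitals.
Ifnb1 promoter: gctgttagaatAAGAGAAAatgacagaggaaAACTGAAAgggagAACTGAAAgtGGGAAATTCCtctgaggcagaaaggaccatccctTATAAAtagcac
The capitals mark, in order, 3 matches to AANNGAAA, the half-site of interferon regulatory factors, 1 match to a form of the NF-kB site, and 1 match to the TATA box letters TATAAA. Both strands of the 250 bases before the gene start were searched. A second TATAAA lay at -210 to -205, outside the stretch shown, and the interferon-stimulated response element, whose letters overlap those of the half-site, had 0 matches. Over 32851 mouse promoters of the same length, 0.365% held the NF-kB letters, 21.3% the half-site, 12.4% TATAAA and 2.98% the response element. Among the interferon-stimulated genes listed for comparison, 20 were in the promoter table, of which 15 held the half-site, 12 held the response element and 1 the NF-kB letters. Of the listed early cytokines, 9 were in the table, of which 3 held the NF-kB letters and 2 the half-site. A match describes letters and does not show a site in use.

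Between 52.8% and 69.6% of spots were well above background in a channel. All 8 macrophage markers, Csf1r and Adgre1 among them, were well above background in the untreated channel of all 20 arrays; so were 5 of 6 neutrophil and 3 of 6 plasmacytoid dendritic cell markers, and 0 of 4 NK cell markers. The targeted transcripts did not all follow the labels. Untreated Ticam1 read 10.46 to 10.95 in wild-type, 10.49 to 11.20 in the TRIF-KO-labelled, 10.38 to 10.84 in MyD88-KO and 7.23 to 7.35 in double-KO cells, in normalized log2 level, so the arrays labelled TRIF-KO sat at the wild-type level and are called TRIF-KO-labelled throughout. Myd88 read 13.78 to 14.96 over all 4 groups, and where its probe lies relative to a deletion was not tested, so it checks nothing. Xist was well above background on all wild-type and MyD88-KO arrays and on 0 of 10 of the others, and the Y-linked Ddx3y the reverse, so the sexes differed between the groups. The arrays lay on 5 slides scanned on 2 days, and genotype, slide and day largely run together: wild-type and TRIF-KO-labelled arrays were scanned on day 1 and double-KO arrays on day 2, with MyD88-KO 1 and 2 h on day 1 and MyD88-KO 4 to 16 h on day 2.

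Ifnb1 was induced by LPS within 1 to 2 h in wild-type cells and its ratio was below 0 at 8 and 16 h, whereas in MyD88-KO cells the ratio reached a similar height and was still there at 16 h. In wild-type cells the log2 ratio of LPS over untreated was 2.06 at 1 h, 5.97 at 2 h, 3.88 at 4 h, -1.90 at 8 h and -2.10 at 16 h, that is 62.9-fold over untreated at 2 h. In MyD88-KO cells it was 1.19, 5.36, 6.09, 6.27 and 5.48 at the same times, between 41.1-fold and 77.1-fold from 2 h on, the 2 h value being that of the swapped array with its sign turned. In the TRIF-KO-labelled cells it was 1.06, 2.47, 2.84, 0.14 and -2.40, with the highest value, 7.16-fold, at 4 h. In double-KO cells it lay between -0.07 and 0.16 at all 5 times. The 3 genotypes with an adapter were thus positive at 1, 2 and 4 h on every array, the TRIF-KO-labelled cells below the other two at 2 and 4 h, and only MyD88-KO cells stayed far above 0 at both late times.

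**Figure D1:**
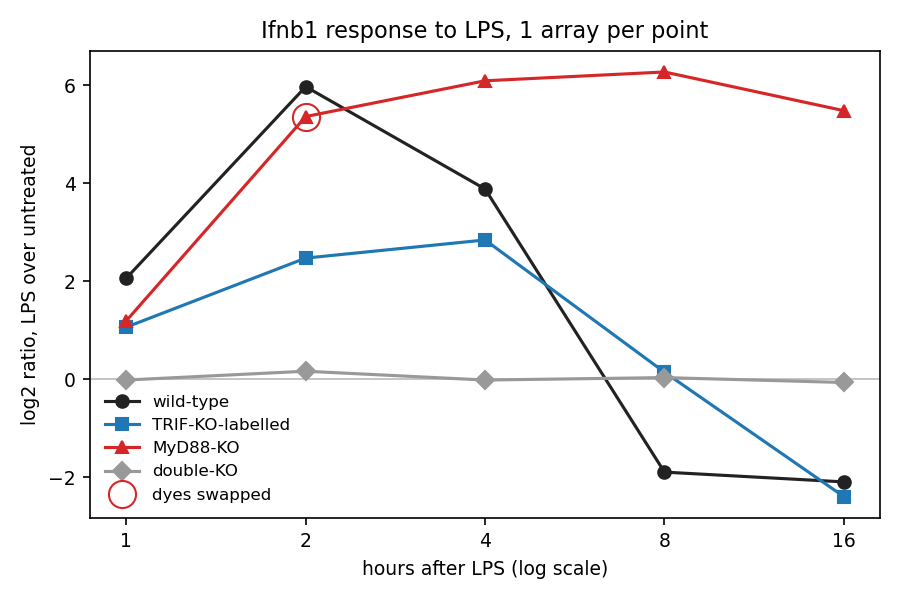
Log2 ratio of Ifnb1 in LPS-treated over untreated cells (y axis) against hours of LPS (x axis, log scale), 1 array per point, 1 line per genotype; the open ring marks the array with swapped dyes. The wild-type line passes from 5.97 at 2 h to -2.10 at 16 h, the MyD88-KO line stays between 5.36 and 6.27 from 2 h on, and the double-KO line stays within 0.16 of 0.

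By rank the gene stood near the top of the LPS response. Among the 21967 to 22033 genes with a ratio on those arrays it was the 15th highest in wild-type cells at 2 h and the 104th at 4 h. In MyD88-KO cells it was the third highest at 2 h, then the 5th, 7th and 12th at 4, 8 and 16 h. In the TRIF-KO-labelled cells it was between the 96th and the 132nd at 1, 2 and 4 h. At 16 h it was among the lowest instead, the 162nd from the bottom in wild-type and the 173rd in TRIF-KO-labelled cells.

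The early response, the mean of 1, 2 and 4 h, was called in wild-type and MyD88-KO cells. It was 3.97 ± 1.96 (SD, n = 3) in wild-type cells, 15.7-fold, with a fitted SE of 0.80 and an adjusted p of 0.010 by limma's moderated test across 22027 genes, of which 11.7% were called. In MyD88-KO cells it was 4.21 ± 2.64 (SD, n = 3), 18.5-fold, adjusted p = 0.037, where 0.427% of genes were called and Ifnb1 had the fifth largest value. In the TRIF-KO-labelled cells it was 2.12 ± 0.94 (SD, n = 3) and not called (adjusted p = 0.18, 1.61% of genes called), and in double-KO cells 0.04 ± 0.10 (SD, n = 3), where 0 genes were called by limma and 995 had an unadjusted p under 0.05. Neither call held with the arrays of that genotype fitted alone. Both thus rest on a spread shared with the other genotypes, the double-KO one (SD 0.10) among them. The wild-type call was lost without the 2 h array (2.97, adjusted p = 0.13) and without the 4 h array (4.02, adjusted p = 0.071). The MyD88-KO call was lost in 11 of 20 fits that left out 1 array, over which it lay between 3.28 and 5.72. Without its own 4 h array it was 3.28 (adjusted p = 0.54), and without its own swapped 2 h array 3.64 (0.19). The other losses left the value at 4.21 and took the adjusted p to between 0.050 and 0.066; they came without wild-type 4 h, TRIF-KO-labelled 2 h, MyD88-KO 8 or 16 h, or any of the 5 double-KO arrays.

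None of the 6 differences in early response between genotypes was called for Ifnb1. Wild-type minus TRIF-KO-labelled was 1.85 ± 1.13 (SE, adjusted p = 0.98), MyD88-KO minus double-KO was 4.17 ± 1.13 (adjusted p = 0.57) and wild-type minus double-KO was 3.93 ± 1.13 (adjusted p = 0.17) by limma, where 0, 0.0409 and 0.213% of genes were called; in the first of these 1146 genes had an unadjusted p under 0.05. Wild-type minus MyD88-KO was -0.24 ± 1.13 (adjusted p = 1.00), the smallest of the 6. TRIF-KO-labelled minus MyD88-KO, at -2.09 ± 1.13 (1.00), was the lowest value of all genes tested in that difference without passing the threshold, and TRIF-KO-labelled minus double-KO was 2.08 ± 1.13 (0.92; 0.0817% of genes called). At single times, wild-type exceeded TRIF-KO-labelled cells by 1.00, 3.50 and 1.04 at 1, 2 and 4 h, so the gap was widest at 2 h. Scan day 1 alone gave 3.97 and 3.28 for wild-type and the 2 MyD88-KO arrays of that day, and on day 2 the single early MyD88-KO array stood 6.04 above the 3 double-KO arrays.

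At 8 and 16 h the response separated MyD88-KO cells from the 3 other groups. Its mean was 5.87 ± 0.56 (SD, n = 2), 58.6-fold, adjusted p = 0.00054 by limma with 35% of genes called, and it stayed called in all 20 fits that left out 1 array (5.48 to 6.27, adjusted p at most 0.022). Wild-type cells stood at -2.00 ± 0.14 (SD, n = 2; adjusted p = 0.18, 20.4% of genes called), TRIF-KO-labelled cells at -1.13 ± 1.80 (SD, n = 2; adjusted p = 0.44, 26.4% called) and double-KO cells at -0.02 ± 0.07 (SD, n = 2), with 0 genes called by limma and 816 at an unadjusted p under 0.05. The TRIF-KO-labelled mean joins unlike values, 0.14 at 8 h and -2.40 at 16 h, and without the 16 h array it turned to 0.14.

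The differences in late response were compared after the values had been seen. Of those called, wild-type minus MyD88-KO lost its call with only these genotypes fitted. MyD88-KO cells exceeded wild-type cells by 7.87 (log2 difference wild-type minus MyD88-KO -7.87 ± 1.39 SE, adjusted p = 0.0027 by limma, 10.5% of genes called), and of all genes tested Ifnb1 had the lowest value of that difference. TRIF-KO-labelled minus MyD88-KO was -7.00 ± 1.39 (adjusted p = 0.0036, 15.2% called), and MyD88-KO minus double-KO was 5.89 ± 1.39 (adjusted p = 0.013, 15.3% called). The first held in all 20 fits that left out 1 array. The second lost its call without the TRIF-KO-labelled 16 h array (-5.73, adjusted p = 0.056), and the third without the MyD88-KO 8 h array (5.50, adjusted p = 0.077) or without the double-KO 8 h (5.94, 0.071) or 16 h array (5.84, 0.084). Late MyD88-KO and double-KO arrays were all scanned on day 2, and late wild-type and TRIF-KO-labelled arrays on day 1, so the first and second of these differences have no value within a scan day. With scan day as a term they were -5.06 (adjusted p = 0.36) and -4.19 (0.40) and lost their calls, and the third lies within day 2. That term rests on the early MyD88-KO arrays of both days, 1 and 2 h against 4 h, so it cannot tell scan day from time. With slide as a term the second was -4.19 (0.47) and the third 5.98 (0.24), and the first could not be fitted. The remaining 3 differences were not called: wild-type minus TRIF-KO-labelled was -0.87 (adjusted p = 0.98; 0.363% of genes called), wild-type minus double-KO -1.98 (0.46; 6.82%) and TRIF-KO-labelled minus double-KO -1.11 (0.69; 10.6%).

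The response changed from early to late in wild-type cells, a call that did not hold with wild-type arrays fitted alone. Late minus early was -5.97 ± 1.27 (SE, adjusted p = 0.014 by limma, 6.61% of genes called), the lowest value of all genes tested, and within the first slide, which held wild-type 1 to 8 h, it was -5.87. It lost the call without the 2 h array (-4.97, adjusted p = 0.056), the 8 h array (-6.07, 0.051) or the 16 h array (-5.87, 0.072). It was not called in MyD88-KO (1.66 ± 1.27, adjusted p = 0.46; 10.5% of genes called), TRIF-KO-labelled (-3.25 ± 1.27, 0.14; 7.65%) or double-KO cells (-0.06 ± 1.27, 1.00; 0%, and 110 genes at an unadjusted p under 0.05). The MyD88-KO value depends on the 1 h array: within the fourth slide, with 4, 8 and 16 h, it was -0.21.

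**Figure D2:**
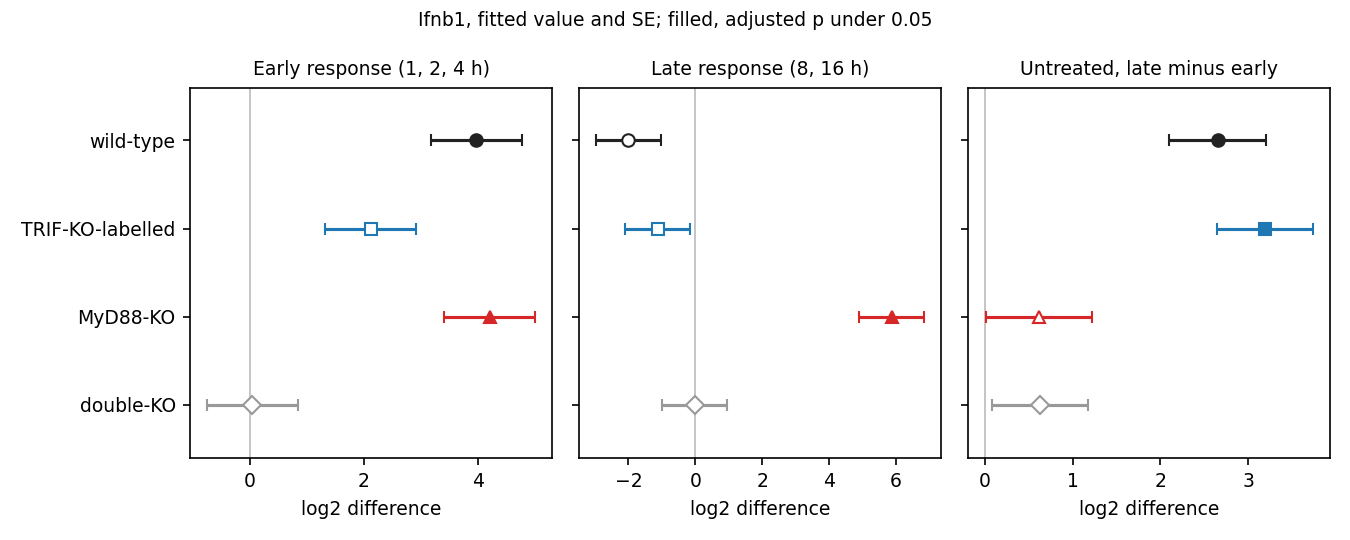
Fitted Ifnb1 values (x axes, log2) with SE for each genotype (y axis): early response, late response, and late minus early untreated level; filled symbols have an adjusted p under 0.05 by limma. Early responses of 3.97 and 4.21, the late MyD88-KO response of 5.87 and the untreated rises of 2.65 and 3.19 are filled.

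A ratio can change through either channel, so both levels are given. In LPS-treated wild-type cells the normalized log2 level was 9.57 at 1 h, 14.53 at 2 h, 12.95 at 4 h, 8.92 at 8 h and 9.14 at 16 h, so the 2 h level was 31.3-fold that of 1 h and 41.9-fold that of 16 h. In MyD88-KO cells it was 8.43, 13.73 (Cy3), 14.81, 15.17 and 13.79, close to the wild-type peak from 2 h on. TRIF-KO-labelled cells read 8.53, 10.14, 12.08, 11.23 and 9.16, a lower and later peak. Double-KO cells read 6.85 to 7.90, and this signal was not well above background at 1 and 2 h in either channel, so these readings are no measured level. The spot was well above background in both channels of the other 18 arrays and saturated on none of the 20. In raw intensity the LPS channel ran from 138 in double-KO at 1 h, against a background of 98.5, to 48000 in MyD88-KO at 8 h, against 96. Fewer expressing cells and less RNA per cell cannot be told apart in these bulk samples.

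Over 8 and 16 h the LPS-treated levels were ordered MyD88-KO 14.48 ± 0.98 (SD, n = 2), TRIF-KO-labelled 10.19 ± 1.46, wild-type 9.03 ± 0.16 and double-KO 7.85 ± 0.07. Of the 6 late differences, MyD88-KO minus double-KO was called (6.63 ± 1.80 SE, adjusted p = 0.023 by limma, 16.7% of genes called), and that call was lost without either late array of either group (5.94 to 7.32, adjusted p 0.061 to 0.13). Wild-type minus MyD88-KO was -5.45 ± 1.80 (adjusted p = 0.12) and was not called. Neighbours in this order were not called by limma either. TRIF-KO-labelled minus MyD88-KO was -4.29 (0.16), wild-type minus TRIF-KO-labelled -1.16 (0.96) and wild-type minus double-KO 1.18 (0.71). The SE of 1.80 pools the spread of all groups and both phases, so it is not the SD of the late arrays given above. Early, wild-type minus double-KO was 5.07 ± 1.47 (adjusted p = 0.054), and the other 5 early differences had adjusted p of 0.27 or more. Late minus early LPS-treated level was called in no genotype: -3.32 ± 1.64 in wild-type (adjusted p = 0.27), -0.05 in TRIF-KO-labelled (0.99), 2.86 ± 1.80 in MyD88-KO (0.40, without the swapped array) and 0.57 in double-KO cells (1.00). In the fits of single channels the early MyD88-KO mean rests on 2 arrays, 1 and 4 h.

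**Figure D3:**
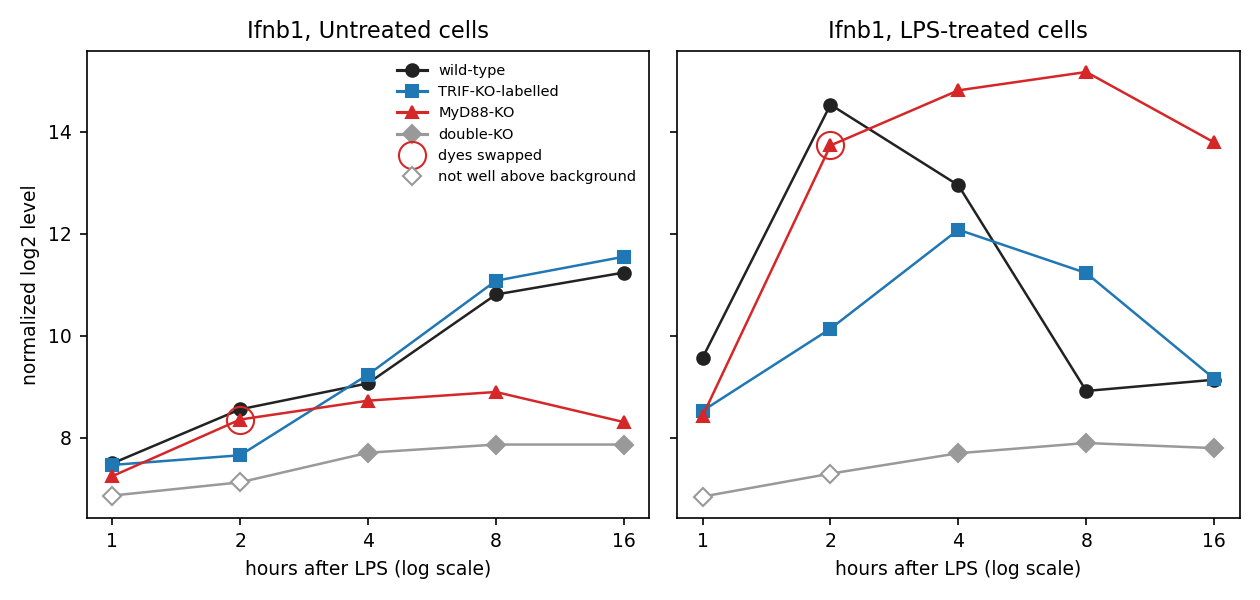
Normalized log2 level of Ifnb1 (y axis) against hours in the experiment (x axis, log scale) in untreated cells (left) and LPS-treated cells (right), 1 array per point; open diamonds were not well above background and the ring marks the swapped array. Untreated wild-type and TRIF-KO-labelled cells end at 11.24 and 11.55, above their own LPS-treated cells at 9.14 and 9.16.

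The untreated cells were not constant. In untreated wild-type cells the log2 level of Ifnb1 was 7.50 at 1 h, 8.56 at 2 h, 9.07 at 4 h, 10.81 at 8 h and 11.24 at 16 h, a 13.4-fold span. In untreated TRIF-KO-labelled cells it was 7.47, 7.66, 9.24, 11.08 and 11.55, a 17.0-fold span. Untreated MyD88-KO cells read 7.25, 8.36 (Cy5), 8.73, 8.90 and 8.31, and double-KO cells 6.87, 7.13, 7.71, 7.87 and 7.87. Every late value exceeded every early value in wild-type, TRIF-KO-labelled and double-KO cells, the double-KO readings at 1 and 2 h not being well above background. In MyD88-KO cells the 16 h value lay below that of 4 h. In wild-type and TRIF-KO-labelled cells the untreated level at 16 h was far above the LPS-treated level of the same array. In double-KO cells these 2 levels were close, with a log2 ratio of -0.07. The raw untreated intensity in wild-type cells went from 103 at 1 h, over a background of 29, to 1140 at 16 h, over 28.5.

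Late minus early, the untreated level rose by 2.65 ± 0.55 (SE) in wild-type cells, 6.29-fold, adjusted p = 0.020 by limma, where 2.91% of genes were called and Ifnb1 had the seventh largest value. It rose by 3.19 ± 0.55 in TRIF-KO-labelled cells, 9.16-fold, adjusted p = 0.0031, where 15.7% of genes were called. It was 0.62 ± 0.60 in MyD88-KO (adjusted p = 0.67, 0.154% called) and 0.63 ± 0.55 in double-KO cells (0.69, 1.4% called). The early double-KO mean includes the 1 and 2 h readings that were not well above background, so this rise, and every difference here from double-KO cells in it or in early levels, is no measured size. The wild-type call was lost without the 1 h (2.22, adjusted p = 0.072), 2 h (2.74, 0.053) or 16 h array (2.44, 0.27), and the TRIF-KO-labelled one without the 16 h array (2.96, 0.066). With wild-type arrays fitted alone the wild-type call did not hold either. Within the first slide the wild-type 8 h array stood 2.44 above its 1, 2 and 4 h arrays. Early and late TRIF-KO-labelled arrays lay on different slides, so slide and time cannot be told apart there. In the fit without a block for time point, none of the 6 differences in this rise between genotypes was called: TRIF-KO-labelled minus MyD88-KO was 2.58 ± 0.82 (adjusted p = 0.12), TRIF-KO-labelled minus double-KO 2.57 ± 0.78 (0.34), wild-type minus MyD88-KO 2.03 ± 0.82 (1.00) and wild-type minus double-KO 2.02 ± 0.78 (0.78).

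The late untreated levels were ordered TRIF-KO-labelled 11.32 ± 0.33 (SD, n = 2), wild-type 11.03 ± 0.30, MyD88-KO 8.61 ± 0.42 and double-KO 7.87 ± 0.00. By limma the first pair of neighbours, wild-type minus TRIF-KO-labelled, was -0.29 ± 0.60 (SE, adjusted p = 1.00). The last pair, MyD88-KO minus double-KO, was 0.74 ± 0.60 (adjusted p = 0.67). Neither was called, and the SE pools the spread of all groups and both phases. Between the pairs, wild-type exceeded MyD88-KO by 2.42 (adjusted p = 0.047, 2.87% of genes called) and double-KO by 3.16 (0.0052, 7.1% called), and TRIF-KO-labelled exceeded them by 2.71 (0.019, 5.43% called) and 3.45 (0.0023, 7.47% called), all ± 0.60. The fragile one was wild-type minus MyD88-KO, called in 7 of 20 fits that left out 1 array (2.13 to 2.72, adjusted p up to 0.29). Wild-type minus double-KO lost its call without the wild-type 16 h array (2.95, 0.067), and TRIF-KO-labelled minus MyD88-KO without the TRIF-KO-labelled 16 h array (2.48, 0.17) or either late MyD88-KO array (3.01, 0.074; 2.42, 0.15). The higher groups were scanned on day 1 and the lower ones on day 2, so none of these 4 differences has a value within a day. With scan day as a term wild-type minus MyD88-KO was 3.90 (adjusted p = 0.27) and TRIF-KO-labelled minus MyD88-KO 4.19 (0.14), and both lost their calls. That term rests on the MyD88-KO arrays of 1 h on day 1 and 4 h on day 2, so it cannot tell scan day from time. None of the 6 early untreated differences was called by limma; they lay between 0.14 and 1.14, with adjusted p of 0.20 or more, the highest being wild-type minus double-KO, where 6.05% of genes were called.

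Other interferon genes gave little signal. Of 21 interferon genes listed, 16 had a probe and 13 passed the filter, and the Ifna genes are near-identical copies that their probes may not tell apart. In the early wild-type response 3 of 13 were called higher (6.72% of genes called higher): Ifnb1, Ifnk and Ifna11. Ifnk, a type I interferon gene known from keratinocytes, stood at 0.72 ± 0.21 (SE, adjusted p = 0.040 by limma). Its ratios at 1, 2 and 4 h were 0.45, 1.40 and 0.31, over low untreated levels of 6.68, 6.73 and 7.19. The untreated 1 h spot was not well above background, so this value carries no firm size. Untreated Ifna11 was well above background on 5 of 20 arrays, 1 of them MyD88-KO, so its calls carry no size here. In MyD88-KO cells Ifnb1 alone was called early (0.25% of genes called higher). Late, the calls there were Ifnb1, Ifna11 and Ifna13 at 0.28 ± 0.07 (0.0071), the last named after its values were seen (16.9% of genes called higher). The other calls, named likewise, were Ifna16 in the late wild-type response, untreated well above background on 3 of 20 arrays, Ifna1 at 0.83 in the late TRIF-KO-labelled response, and Ifna12 at -0.47 in the untreated TRIF-KO-labelled rise. Apart from Ifnb1, the fitted values of the 12 interferon genes tested stayed within 0.83 of 0 in all 8 responses and within 0.47 in the 4 untreated rises.

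Of 25 genes of the route from Tlr4 to Ifnb1, which were picked with earlier results of these data known, 6 rose early in wild-type cells, where 6.72% of all genes were called higher. MyD88-KO cells had 1 (Irf1), TRIF-KO-labelled cells 2 (Cd14 and Irf1) and double-KO cells 0, against 0.25, 0.876 and 0% of genes. Late, 10 rose in MyD88-KO cells (16.9% of genes called higher). Calls in either direction covered 20.4% of genes in the late wild-type and 26.4% in the late TRIF-KO-labelled response. In wild-type cells 3 rose (Tank, Tbk1 and Hmga1; 9.96%) and 2 fell (Tlr4 and Irf5), and in TRIF-KO-labelled cells 1 rose (Cd14; 12.5%) and 5 fell (Tlr4, Irf5, Irf8, Hmga1 and Ep300), named after their values were seen. Irf1, a transcription factor that binds the half-site, rose in the early response by 2.99 ± 0.34 (SE) in wild-type, 2.43 ± 0.34 in TRIF-KO-labelled and 3.03 ± 0.34 in MyD88-KO cells (adjusted p at most 0.0036), and late by 3.30 ± 0.41 in MyD88-KO cells only among the 4 genotypes (adjusted p = 6.3e-05; wild-type -0.11). Tank, a scaffold of the Tbk1 kinase, rose by 1.82 ± 0.49 in wild-type cells, Cd14, the LPS co-receptor, by 1.36 ± 0.33, the NF-kB subunit gene Rela by 0.95 ± 0.27 and Tbk1 by 0.85 ± 0.20, with adjusted p from 0.018 to 0.040; the other call was the adapter gene Myd88 (adjusted p = 0.013), named after its value was seen. Irf3 was not called in any of the 8 responses and lay between -0.36 and 0.16. Irf7, the interferon-induced factor that amplifies type I interferon, stood at 0.39 ± 0.32 early in wild-type cells (adjusted p = 0.41). It rose late by 2.65 ± 0.39 in MyD88-KO cells (0.0002), and its ratios in wild-type cells were 1.05 at 8 h and 0.03 at 16 h. At these times LPS-treated Irf7 was 15.09 and 15.40 in wild-type and 15.99 and 16.43 in MyD88-KO cells, and untreated Irf7 14.04 and 15.37 against 13.24 and 13.88. LPS-treated Irf1 was 17.22 and 16.81 against 18.51 and 18.63, and untreated Irf1 17.03 and 17.23 against 14.93 and 15.61. Both channels thus differed.

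Of the 7 genes of the receptor and its JAK-STAT pathway, 0 were called in the early response of wild-type cells and 2 in their late response (9.96% of genes called higher), both receptor chains: Ifnar1 rose by 1.23 ± 0.22 (SE, adjusted p = 0.0016 by limma) and Ifnar2 by 1.09 ± 0.15 (0.0002). In MyD88-KO cells, whose Ifnb1 ratio was still high then, they stood at -0.15 ± 0.22 and 0.34 ± 0.15 (adjusted p = 0.63 and 0.094), and the 3 calls there (16.9% of genes called higher) included Tyk2, a receptor kinase, at 1.25 ± 0.19, and Stat2, a signal transducer of the receptor, at 1.67 ± 0.35 (adjusted p at most 0.0027), named after their values were seen.

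The interferon-stimulated genes had their highest median ratio at 4 h in wild-type cells, later than Ifnb1. Of 29 listed, 28 had a probe that passed. Their median log2 ratio in wild-type cells was 0.21 at 1 h, 0.40 at 2 h, 2.76 at 4 h, 0.73 at 8 h and -0.18 at 16 h. In MyD88-KO cells it was -0.10, 0.25, 3.09, 3.13 and 3.15, in TRIF-KO-labelled cells -0.14, -0.12, 0.80, 0.41 and -0.33, and in double-KO cells between -0.35 and -0.01. The median ratio was thus near 0 at 2 h, when Ifnb1 was already at 5.97 in wild-type cells, and stayed near its 4 h value in MyD88-KO cells alone. Both channels moved in wild-type cells. Their LPS-treated median level was 17.48, 16.98 and 16.43 at 4, 8 and 16 h, and their untreated one 14.19, 16.07 and 16.58. In MyD88-KO cells the LPS-treated median was 17.54, 17.97 and 17.92 at these times, and the untreated one 13.38, 14.05 and 14.14.

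**Figure D4:**
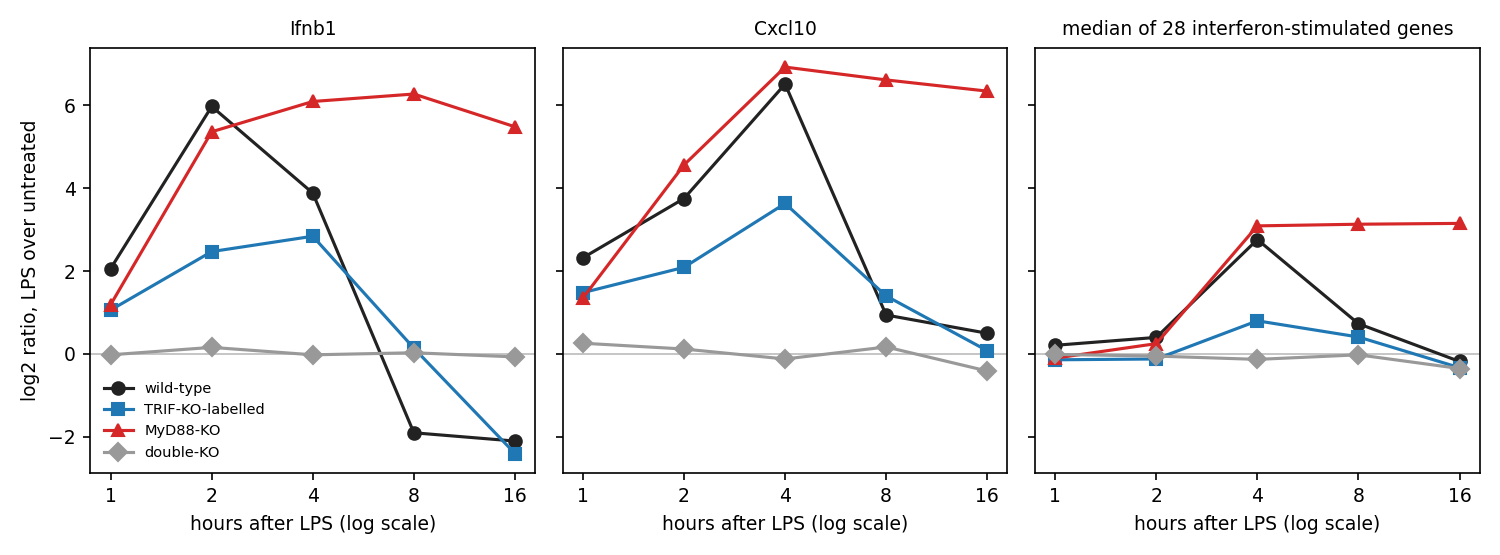
Log2 ratio of LPS over untreated (y axis) against hours (x axis, log scale) for Ifnb1 (left), Cxcl10 (middle) and the median of 28 interferon-stimulated genes (right), 1 array per point. In MyD88-KO cells all 3 panels are high from 4 h on (6.09, 6.92 and 3.09 at 4 h), and in wild-type cells the medians at 2 and 4 h are 0.40 and 2.76.

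In the late response all 28 rose in MyD88-KO cells, with a median of 3.21 against 0.00 over all genes, of which 16.9% were called higher. In wild-type cells 1 of 28 was called (Bst2, a protein that tethers viruses to the cell, 0.70 ± 0.17 SE, named after its value was seen; 9.96% of genes called higher), and in TRIF-KO-labelled and double-KO cells 0 (limma; 0 and 1 higher at an unadjusted p under 0.05). The count of 28 was 14 without the MyD88-KO 8 h array, 18 without its 16 h array, 12 with a dye term, 11 with a fit of MyD88-KO arrays alone and 5 with scan day as a term. That term took the wild-type count to 12 and the TRIF-KO-labelled count to 4, so the order of the genotypes in this count did not hold under it. The term rests on the early MyD88-KO arrays, 1 and 2 h on day 1 and 4 h on day 2. It therefore cannot tell scan day from time, and no conclusion about scan day is drawn from these counts. Summed over the 6 neutrophil markers, untreated intensity was 31800 to 46000 on wild-type arrays and 98200 to 123000 on MyD88-KO arrays. The markers did not all go the same way, and they were named after their values were seen. The mean untreated log2 level of Ly6g was 10.29 on wild-type arrays and 8.85 on MyD88-KO arrays. Those of S100a8, S100a9, Camp, Ngp and Mpo were higher on MyD88-KO arrays. The part of these markers in the differences between genotypes was not tested. MyD88-KO exceeded wild-type cells for 8 of 28 in the late difference (5.71% of genes called that way), TRIF-KO-labelled cells for 19 (8.53%) and double-KO cells for 19 (7.6%). In the early response Cxcl10 alone was called in wild-type (4.20 ± 0.82, adjusted p = 0.0089; 6.72% of genes called higher) and in MyD88-KO cells (4.28 ± 0.82, 0.038; 0.25%), and 13 of 28 in each had an unadjusted p under 0.05 by limma, all higher. In TRIF-KO-labelled and double-KO cells 0 were called early by limma, with 1 each at that p.

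Cxcl10, a chemokine that both interferon and LPS induce, and Ifit1, an antiviral RNA-binding protein, are given here array by array. The ratio of Cxcl10 was already 2.32 at 1 h in wild-type cells, then 3.75, 6.51, 0.94 and 0.50, and in MyD88-KO cells 1.35, 4.56, 6.92, 6.61 and 6.34. The ratio of Ifit1 was 0.37, -0.03, 4.25, 0.46 and 0.26 in wild-type and -0.42, 1.13, 5.77, 4.16 and 4.22 in MyD88-KO cells. The ratio of Cxcl10 was thus above 1 at 1, 2 and 4 h in both genotypes and at 8 and 16 h in MyD88-KO cells alone of the 2, and that of Ifit1 above 4 in both for the first time at 4 h. The late Cxcl10 ratios differed mostly through the untreated channel. At 8 and 16 h LPS-treated Cxcl10 was 18.17 and 17.74 in wild-type and 18.63 and 18.78 in MyD88-KO cells. Untreated Cxcl10 was 17.23 and 17.24 in wild-type and 12.01 and 12.45 in MyD88-KO cells.

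In untreated cells the same genes were also followed over time. The median untreated level of the 28 genes was 14.68, 14.89, 14.19, 16.07 and 16.58 from 1 to 16 h in wild-type cells and 15.22, 15.07, 14.56, 16.54 and 16.88 in TRIF-KO-labelled cells. It was 14.00, 13.85, 13.38, 14.05 and 14.14 in MyD88-KO cells and 13.20, 12.93, 12.68, 13.80 and 13.99 in double-KO cells. The lowest value in every genotype was that of 4 h. Late minus early, 13 of 28 rose in wild-type cells (median 1.15; 1.97% of genes called higher) and 20 did so in the TRIF-KO-labelled group (1.33; 7.99%). In double-KO cells 4 rose (0.75; 0.695%) and in MyD88-KO cells 1 (0.49; 0.127%), and none of the 28 fell in any genotype. In the same order 22, 24, 17 and 10 had an unadjusted p under 0.05. Leaving out 1 array took the wild-type count to 3 (without its 16 h array), the TRIF-KO-labelled count to 4 (without its 16 h array), the MyD88-KO count to 0 (without its 1 h or 16 h array) or 2 (without its 4 h array), and the double-KO count to between 0 and 2 without its 1, 2, 8 or 16 h array. Without the TRIF-KO-labelled arrays, an alternative chosen after seeing the data, the counts were 12, 0 and 2 in wild-type, MyD88-KO and double-KO cells. Without normalization of levels between arrays they were 0 in wild-type, MyD88-KO and double-KO cells and 1 in the TRIF-KO-labelled group. With slide as a term the wild-type count was 3, the MyD88-KO count 0 and the double-KO count 1, and with each of these genotypes fitted alone all 3 counts were 0.

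**Figure D5:**
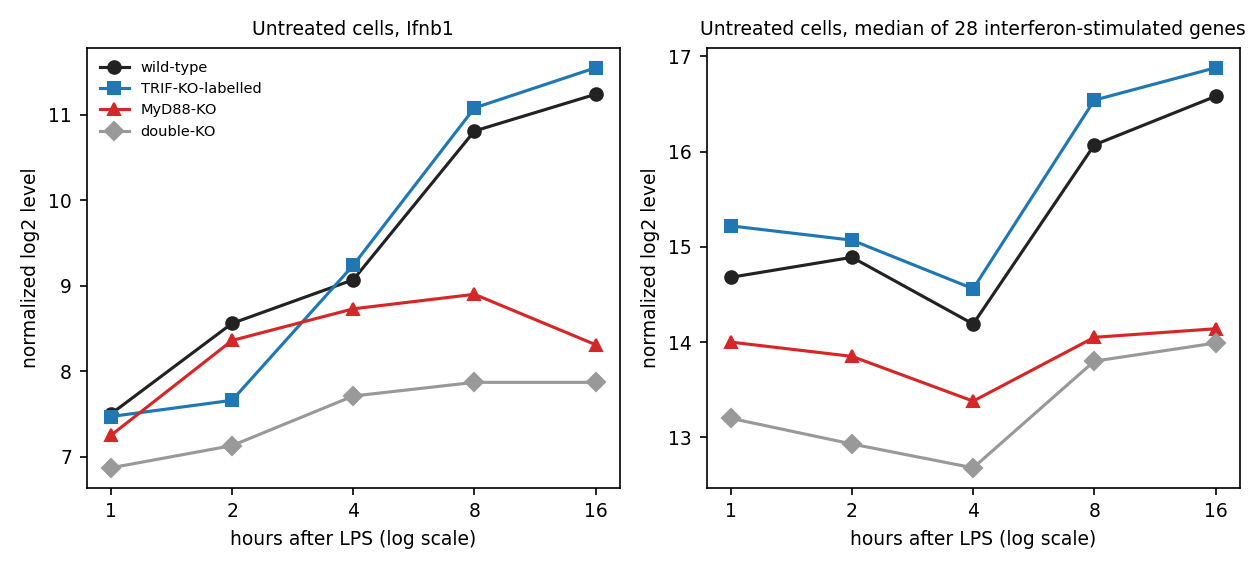
Untreated cells: normalized log2 level (y axes) of Ifnb1 (left) and the median over 28 interferon-stimulated genes (right) against hours (x axis, log scale), 1 array per point. At 8 and 16 h the wild-type and TRIF-KO-labelled points lie at 10.81 or more for Ifnb1 and at 16.07 or more for the median, and those of MyD88-KO and double-KO cells at 8.90 or less and at 14.14 or less.

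Single genes of this group differed in which genotype passed. Usp18, which removes the ubiquitin-like Isg15 and restrains the receptor, was the single call in untreated MyD88-KO cells (1.39 ± 0.20 SE, adjusted p = 0.014) and rose by 1.51 ± 0.18 in double-KO cells (0.0036), beside Ifit3 (1.45 ± 0.29), Oas2 (0.68 ± 0.12) and Xaf1 (0.98 ± 0.21) there; these 4 were named after their values were seen. Cxcl10 rose by 3.05 ± 0.75 in untreated wild-type cells (adjusted p = 0.045) and stood at 1.92 ± 0.75 in TRIF-KO-labelled cells (0.094). Ifit1 rose by 1.80 ± 0.40 in TRIF-KO-labelled cells (0.012) and stood at 1.42 ± 0.40 in wild-type cells (0.079). Irf1 rose in both (1.78 ± 0.27 and 1.51 ± 0.27, adjusted p at most 0.0039). Of the macrophage markers, named after their values were seen, Itgam fell by 0.89 in untreated wild-type cells over the same times (adjusted p = 0.029), and in TRIF-KO-labelled cells Fcgr1 rose by 1.14 (0.033) and Mertk fell by 0.41 (0.042), while the summed intensity of all 8 ranged from 781000 to 1060000 and from 817000 to 994000 in these groups. The neutrophil markers Ly6g, in TRIF-KO-labelled cells, and S100a9, in double-KO cells, rose by 1.72 (0.046) and 0.60 (0.039). The B cell marker Ms4a1 rose by 1.34 in double-KO cells (0.028), and the dendritic cell marker Flt3 fell by 0.55 in TRIF-KO-labelled cells (0.043). In the same untreated contrasts 0 of 6 plasmacytoid dendritic cell markers were called by limma, with a summed intensity of 159000 to 186000 in wild-type cells. Their part in the result was not tested.

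Of 10 inflammatory cytokine and related genes that LPS induces without interferon, some were called early in each genotype with an adapter. In the early response 10 of 10 rose in wild-type cells (median 5.11; 6.72% of genes called higher), 4 in MyD88-KO cells (3.54; 0.25%) and 8 in TRIF-KO-labelled cells (4.85; 0.876%). With each genotype fitted alone these counts were 0, 0 and 2. In double-KO cells 0 rose (0.00), by limma and also at an unadjusted p under 0.05. The 4 in MyD88-KO cells were Tnf, Il1b, Cxcl1 and Cxcl2, and all 10 there had an unadjusted p under 0.05. The wild-type count was 6 without its 2 h array, the TRIF-KO-labelled count 4 without its 2 h and 5 without its 4 h array, and the MyD88-KO count 7 without its 1 h and 2 without its 2 h array. Tnf, the first of the secreted inflammatory cytokines, rose early by 3.09, 3.06 and 3.24 ± 0.29 (SE) in wild-type, MyD88-KO and TRIF-KO-labelled cells (adjusted p at most 0.00029), values within 1 SE of each other, where Ifnb1 read 3.97, 4.21 and 2.12, without a called difference. These are ratios. LPS-treated Tnf was 16.88, 17.95 and 17.40 at 1, 2 and 4 h in wild-type and 15.34, 15.91 and 14.96 in MyD88-KO cells. Untreated Tnf was 14.26, 14.55 and 14.16 in wild-type and 12.29, 12.84 and 11.90 in MyD88-KO cells. Late, Il1b and Cxcl1, the latter a neutrophil attractant, rose by 5.24 ± 0.59 and 4.76 ± 0.82 in wild-type cells. Their values were 1.45 ± 0.59 (adjusted p = 0.071) and 1.42 ± 0.82 (0.20) in MyD88-KO cells. For these 2 genes the order was the reverse of that of Ifnb1. Tnf went the way of Ifnb1, with ratios at 8 and 16 h of 2.50 and 0.41 in wild-type and 3.41 and 2.56 in MyD88-KO cells. In the late difference wild-type exceeded MyD88-KO cells by limma for 2 of 10 and fell below for 0 (median 0.72; 10.5% of genes called). Late, 7 of 10 rose in wild-type cells (9.96% of genes called higher), 4 in MyD88-KO cells (Tnf, Il6, Cxcl2 and Ptgs2; 16.9%), 9 in TRIF-KO-labelled cells (12.5%) and 0 in double-KO cells (limma; 0%, and 0 of 10 at an unadjusted p under 0.05). In untreated cells 3 rose in the TRIF-KO-labelled group (Il1a, Il1b and Il6; 7.99% of genes called higher) and 1 in double-KO cells (Il1b, 3.02 ± 0.57; 0.695%). By limma 0 rose in MyD88-KO cells (0.127%) and 0 in wild-type cells (1.97%), with 0 and 2 higher at an unadjusted p under 0.05.

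The listed brakes on interferon signalling or induction had 16 of 17 genes tested, of which 8 rose early in wild-type cells, 3 in MyD88-KO cells, 5 in TRIF-KO-labelled cells and 0 in double-KO cells (6.72, 0.25, 0.876 and 0% of genes called higher). Late, 5, 9, 5 and 0 rose in the same order (9.96, 16.9, 12.5 and 0% of genes). In TRIF-KO-labelled cells 2 fell, Pias1 and Il10, named after their values were seen (26.4% of genes called in either direction). Tnfaip3, which encodes a deubiquitinase, rose early by 5.59 ± 0.53 (SE) in wild-type, 4.42 ± 0.53 in TRIF-KO-labelled and 4.10 ± 0.53 in MyD88-KO cells, and Nfkbia, the NF-kB inhibitor, by 3.18 ± 0.26, 2.91 ± 0.26 and 2.42 ± 0.26 in that order. Socs3, which restrains cytokine receptors, rose by 2.82 ± 0.15, 2.15 ± 0.15 and 2.12 ± 0.15, with adjusted p at most 0.0027 for all 3 genes in all 3 genotypes. Dusp1, a phosphatase of stress kinases, rose in wild-type (3.82 ± 0.65) and TRIF-KO-labelled cells (2.86 ± 0.65, adjusted p = 0.046). It stood at 1.68 ± 0.65 in MyD88-KO cells (0.34), a mean that joins unlike values, 2.75 at 1 h, 3.46 at 2 h and -1.17 at 4 h. In the late response Tnfaip3, Nfkbia and Socs3 rose in the same 3 genotypes (1.73 to 3.68), wild-type included, where the Ifnb1 ratio was -2.00.

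The genes most like Ifnb1 were found by Pearson correlation, as a description over arrays that share slides and channels. For the ratio over 20 arrays the 8 highest of 21799 genes had r of 0.91 to 0.95 and included Irf1 (0.93), E2f8 (0.94), a repressor of cell cycle genes, Sema4d, a semaphorin (0.93), the chemokine Ccl12 (0.91) and Ifi203 (0.91). For the untreated level over 19 arrays the 8 highest included Itm2b (0.97), Trim21 (0.96), an antibody receptor within the cell, and Tarm1, Cd180 and Tlk2 (each 0.94), and 60 genes had an r over 0.9. For the LPS-treated level over 19 arrays the named ones were Ch25h, which makes 25-hydroxycholesterol, Ifi203, Peli1 (each 0.92) and Birc2 (0.91), with 9 genes over 0.9.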

How the data were processed

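Macrophage RNA was measured on 20 Agilent 2-colour arrays. Per the file headers, Feature Extraction 10.10.1.1 gave the deposited mean and background intensity of each spot and a dye-normalized log10 ratio of Cy5 over Cy3, with probes placed on mm9; the authors' deposited value table holds that log10 ratio. It was used only as an alternative.

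Here intensities were corrected with normexp (offset 50), made into log2 ratios with loess within arrays and into log2 levels with Aquantile between arrays (limma 3.58.1, R 4.3.3). The swapped array's ratio had its sign turned and its channels stayed out of the level fits. Outlier spots were left out, and probes well above background in a channel on at least 3 arrays were kept. The kept probe with the highest mean intensity stood for a gene, named through RefSeq where its accession matched. Means of early (1, 2 and 4 h) and late (8 and 16 h) arrays per genotype were fitted with lmFit and eBayes over all genes, adjusted by Benjamini-Hochberg and called under 0.05. The script was tested on simulated data.

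The gene, the lists and the comparisons were chosen with earlier results of these data known. Beside Ifnb1, the text names the 8 genes most like it in each quantity, at most 4 called genes per list by size of the early MyD88-KO response, and Irf3, Irf7, Tbk1, Ifnar1, Ifnar2, Cxcl10, Ifit1 and Tnf; others are said to be named after their values were seen. Alternatives changed the background correction, normalization, filter, blocks, early window, dye term, samples fitted and arrays. The number of arrays limits the precision. Some genes that this rule names are not reported here.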

Additional observations from a re-analysis of the deposited data

Results flagged for a closer look

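Among 12 groups of 4 or 5 Ifnb1 values, 1 array stood apart: the MyD88-KO ratio at 1 h, 1.19, against 5.36 to 6.27 at the 4 later times, a gap of 0.822 of the group's range. The group is a time course, and chance alone sets apart about 1 in 20 such groups.

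The late response differed between genotypes by limma's test of the difference. Wild-type minus MyD88-KO was -7.87 ± 1.39 (SE, adjusted p = 0.0027), TRIF-KO-labelled minus MyD88-KO was -7.00 ± 1.39 (0.0036) and MyD88-KO minus double-KO was 5.89 ± 1.39 (0.013), with all late arrays of MyD88-KO cells above all late arrays of the other genotypes.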

How the results depend on the processing

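Each value below is in log2 units, with limma's adjusted p in parentheses, and the cause of a change was not tested unless the setting itself removes arrays. The late MyD88-KO response kept its direction and its call under every setting fitted. A single spot carries the gene, and each genotype has 1 array per time point, so the early and late means join different times. A slide term could be fitted for some contrasts only, and the others have no value under it. The scan day term rests on early MyD88-KO arrays of different times, so it cannot tell scan day from time. Same-numbered arrays share a time point; their deviations correlated between -0.19 and 0.83 for ratios and between 0.09 and 0.81 for untreated levels, so the replicate block is given here only and lost calls under it are no weaker effect.

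Without background correction, the call was lost for late untreated level for wild-type minus MyD88-KO 2.58 (0.066), and the call was gained for early LPS-treated level for wild-type minus double-KO 5.42 (0.049), and the sign changed for untreated rise for MyD88-KO minus double-KO 0.00 (1). With the scanner software's processed signals, calls were lost for late minus early untreated level of wild-type 3.09 (0.13), late untreated level for wild-type minus MyD88-KO 2.75 (0.23) and late untreated level for TRIF-KO-labelled minus MyD88-KO 3.12 (0.12), and the call was gained for early LPS-treated level for wild-type minus double-KO 6.81 (0.027), and signs changed for early LPS response of double-KO -0.04 (1) and late minus early LPS-treated level of TRIF-KO-labelled 0.18 (0.96). With median centring in place of loess, calls were lost for late minus early untreated level of wild-type 2.43 (0.055) and late untreated level for wild-type minus MyD88-KO 2.34 (0.11), and signs changed for early LPS response of double-KO -0.01 (1), late LPS response of double-KO 0.00 (1), late minus early LPS response of double-KO 0.01 (1) and late minus early LPS-treated level of TRIF-KO-labelled 0.13 (0.97). With ratios scaled between arrays and levels quantile normalized, the call was lost for late LPS response for MyD88-KO minus double-KO 3.66 (0.065), and the call was gained for early LPS response of TRIF-KO-labelled 2.32 (0.035), and signs changed for late minus early LPS response of MyD88-KO -0.26 (0.98) and late minus early LPS-treated level of TRIF-KO-labelled 0.02 (0.99). Without normalization of levels between arrays, calls were lost for late minus early untreated level of wild-type 2.23 (0.69), late minus early untreated level of TRIF-KO-labelled 2.82 (0.12), late untreated level for wild-type minus MyD88-KO 2.25 (1), late untreated level for wild-type minus double-KO 3.05 (0.15), late untreated level for TRIF-KO-labelled minus MyD88-KO 2.44 (0.57) and late untreated level for TRIF-KO-labelled minus double-KO 3.24 (0.092), and signs changed for late minus early untreated level of double-KO -0.60 (0.53), early untreated level for TRIF-KO-labelled minus double-KO -0.19 (0.84), early untreated level for MyD88-KO minus double-KO -0.21 (0.88), untreated rise for MyD88-KO minus double-KO 1.01 (0.84) and late minus early LPS-treated level of double-KO -0.66 (0.77). Without the filter on dim probes, the call was lost for late untreated level for wild-type minus MyD88-KO 2.42 (0.066). With the time point as a replicate block, calls were gained for early LPS response of TRIF-KO-labelled 2.12 (0.036), late minus early LPS response of TRIF-KO-labelled -3.25 (0.034), early LPS response for wild-type minus double-KO 3.93 (0.023), early untreated level for wild-type minus double-KO 1.14 (0.0068), untreated rise for wild-type minus double-KO 2.02 (0.045), untreated rise for TRIF-KO-labelled minus MyD88-KO 2.51 (0.016), early untreated level for TRIF-KO-labelled minus double-KO 0.89 (0.027), untreated rise for TRIF-KO-labelled minus double-KO 2.57 (0.0099), late LPS-treated level for wild-type minus MyD88-KO -5.45 (0.015), early LPS-treated level for wild-type minus double-KO 5.07 (0.0054) and late LPS-treated level for TRIF-KO-labelled minus MyD88-KO -4.29 (0.028), and the sign changed for untreated rise for MyD88-KO minus double-KO 0.05 (0.97). With the mean over 5 time points and the replicate block, the call was lost for early LPS response of wild-type 1.58 (0.16), and the call was gained for early LPS response for MyD88-KO minus double-KO 4.86 (0.031). With 1 and 2 h alone as early, calls were lost for early LPS response of wild-type 4.02 (0.1) and early LPS response of MyD88-KO 3.28 (0.8), and calls were gained for untreated rise for TRIF-KO-labelled minus MyD88-KO 2.39 (0.045), untreated rise for TRIF-KO-labelled minus double-KO 2.89 (0.049), late minus early LPS-treated level of MyD88-KO 6.05 (0.034) and late LPS-treated level for wild-type minus MyD88-KO -5.45 (0.038), and signs changed for early LPS response for wild-type minus MyD88-KO 0.74 (1), untreated rise for MyD88-KO minus double-KO 0.49 (0.8), late minus early LPS-treated level of TRIF-KO-labelled 0.86 (0.68) and early LPS-treated level for TRIF-KO-labelled minus MyD88-KO 0.90 (0.92). With slide as a random block, the sign changed for late minus early LPS-treated level of TRIF-KO-labelled 0.22 (0.95). With slide as a fixed term, calls were lost for late minus early LPS response of wild-type -5.87 (0.087), late LPS response for TRIF-KO-labelled minus MyD88-KO -4.19 (0.47), late LPS response for MyD88-KO minus double-KO 5.98 (0.24), late minus early untreated level of wild-type 2.44 (0.22), late untreated level for TRIF-KO-labelled minus MyD88-KO 4.19 (0.19), late untreated level for TRIF-KO-labelled minus double-KO 5.49 (0.087) and late LPS-treated level for MyD88-KO minus double-KO 7.28 (0.16), and signs changed for late minus early LPS response of MyD88-KO -0.21 (0.98), late LPS response for TRIF-KO-labelled minus double-KO 1.80 (0.79), late minus early untreated level of MyD88-KO -0.12 (1), late minus early LPS-treated level of MyD88-KO -0.33 (0.98) and late LPS-treated level for TRIF-KO-labelled minus MyD88-KO 2.09 (0.79). With scan day as a fixed term, calls were lost for late LPS response for wild-type minus MyD88-KO -5.06 (0.36), late LPS response for TRIF-KO-labelled minus MyD88-KO -4.19 (0.4), late untreated level for wild-type minus MyD88-KO 3.90 (0.27) and late untreated level for TRIF-KO-labelled minus MyD88-KO 4.19 (0.14), and calls were gained for early LPS-treated level for wild-type minus double-KO 11.45 (0.017), early LPS-treated level for TRIF-KO-labelled minus double-KO 9.35 (0.041), late LPS-treated level for TRIF-KO-labelled minus double-KO 8.73 (0.04) and early LPS-treated level for MyD88-KO minus double-KO 7.53 (0.022), and signs changed for late LPS response of TRIF-KO-labelled 0.28 (0.89), late minus early LPS response of MyD88-KO -0.21 (0.98), early LPS response of double-KO -1.36 (0.94), early LPS response for wild-type minus MyD88-KO 0.70 (0.87), late LPS response for wild-type minus double-KO 0.83 (0.84), late LPS response for TRIF-KO-labelled minus double-KO 1.70 (0.64), late minus early untreated level of MyD88-KO -0.12 (1), late minus early LPS-treated level of MyD88-KO -0.33 (0.98), late LPS-treated level for wild-type minus MyD88-KO 0.93 (0.93), early LPS-treated level for TRIF-KO-labelled minus MyD88-KO 1.81 (0.7) and late LPS-treated level for TRIF-KO-labelled minus MyD88-KO 2.09 (0.79). With a dye term, the call was lost for early LPS response of wild-type 4.84 (0.054), and signs changed for late LPS response of double-KO 0.84 (1) and early LPS response for wild-type minus MyD88-KO 0.34 (1). With the swapped array in the levels, the call was gained for early LPS-treated level for wild-type minus double-KO 5.07 (0.047). With limma's trend and robust options, the call was lost for early LPS response of MyD88-KO 4.21 (0.073), and the call was gained for early LPS-treated level for wild-type minus double-KO 5.07 (0.045). With the compared groups alone in the fit, calls were lost for early LPS response of wild-type 3.97 (0.25), late minus early LPS response of wild-type -5.97 (0.27), late minus early untreated level of wild-type 2.65 (0.11), early LPS response of MyD88-KO 4.21 (0.69), late LPS response for wild-type minus MyD88-KO -7.87 (0.06), late untreated level for wild-type minus MyD88-KO 2.42 (0.1) and late untreated level for TRIF-KO-labelled minus MyD88-KO 2.71 (0.07), and the call was gained for early LPS-treated level for wild-type minus double-KO 5.07 (0.029). Without the TRIF-KO-labelled arrays, chosen after seeing the data, the call was lost for early LPS response of MyD88-KO 4.21 (0.075).

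Leaving out 1 array at a time gave early LPS response for wild-type minus MyD88-KO -1.75 to 0.72, early LPS response for wild-type minus double-KO 2.93 to 4.89, late minus early untreated level of wild-type 2.22 to 3.00. It also gave early LPS-treated level for wild-type minus double-KO 3.98 to 6.46, early LPS response of wild-type 2.97 to 4.93, late minus early LPS response of wild-type -6.93 to -4.97. Further ranges were late untreated level for wild-type minus MyD88-KO 2.13 to 2.72, early LPS-treated level for wild-type minus MyD88-KO -2.46 to 3.92, early LPS response of MyD88-KO 3.28 to 5.72. Further ranges were early untreated level for wild-type minus TRIF-KO-labelled -0.09 to 0.81, late untreated level for wild-type minus double-KO 2.95 to 3.38, early untreated level for TRIF-KO-labelled minus MyD88-KO -0.60 to 0.88. Further ranges were late minus early LPS-treated level of TRIF-KO-labelled -1.09 to 0.98, late LPS response for wild-type minus TRIF-KO-labelled -2.14 to 0.40, late LPS response of TRIF-KO-labelled -2.40 to 0.14. Further ranges were late LPS response for TRIF-KO-labelled minus MyD88-KO -8.27 to -5.73, late LPS response for TRIF-KO-labelled minus double-KO -2.38 to 0.16, late minus early untreated level of TRIF-KO-labelled 2.87 to 3.75. Further ranges were late untreated level for TRIF-KO-labelled minus MyD88-KO 2.42 to 3.01, late minus early LPS response of TRIF-KO-labelled -4.52 to -1.98, early LPS response for MyD88-KO minus double-KO 3.23 to 5.68. Further ranges were late minus early untreated level of MyD88-KO -0.12 to 1.36, early untreated level for wild-type minus MyD88-KO -0.35 to 1.13, late minus early LPS-treated level of MyD88-KO -0.33 to 6.05. Further ranges were late LPS-treated level for wild-type minus MyD88-KO -6.14 to -4.76, early LPS-treated level for MyD88-KO minus double-KO 1.16 to 7.53, untreated rise for MyD88-KO minus double-KO -0.75 to 0.73. Further ranges were early LPS-treated level for TRIF-KO-labelled minus MyD88-KO -4.57 to 1.81, late LPS response for MyD88-KO minus double-KO 5.50 to 6.29, late LPS-treated level for MyD88-KO minus double-KO 5.94 to 7.32. Further ranges were early LPS response of double-KO -0.02 to 0.07, late minus early LPS response of double-KO -0.11 to 0.00, late LPS response of double-KO -0.07 to 0.03. Counts of called list genes moved as well. With the time point as a replicate block, the interferon-stimulated genes higher late than early in untreated cells were 23 for wild-type cells, 16 for the double-KO group and 9 for the MyD88-KO group. In the late response they were 5 in wild-type and 1 in TRIF-KO-labelled cells, and 9 early cytokines rose in MyD88-KO cells.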
